A study of Cicer arietinum with 8 samples.

Results

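The leaf response of chickpea (Cicer arietinum, genotype ICC 3996) to drought was compared with its leaf response to cold nights, probe by probe. The arrays were spotted 2-colour cDNA arrays, on which RNA of treated and of control plants is labelled with different dyes and hybridised to the same slide. The quantity compared was the log2 ratio of treated over control, and the difference is given throughout as drought minus cold. A probe was compared when it had a ratio on at least 2 of 3 arrays under each stress, and 403 of the 756 probes met this. Of the other probes, 208 had no ratio on any leaf array, 81 had fewer than 2 under both stresses, 38 had 2 or more under drought only and 26 under cold only. The files name probes by codes with the prefixes U, CA, LS and LC and give no gene names, so no gene name or role is attached to any code here.

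Water shortage and low temperature can both disturb the membranes of plant cells, and both are known to act on leaves through overlapping gene programmes. Drought signalling runs largely through the hormone abscisic acid, which closes stomata and induces protective proteins. Cold signalling runs largely through CBF transcription factors, which are induced within hours and switch on cold acclimation genes, some of which also answer to drought.

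The drought experiment ran in a glasshouse at 15 to 25 °C. The drought plants were dried from 2 weeks after flowering until their pots held 30% of the water content, and their leaf controls stayed at 80%. The cold plants, also 2 weeks after flowering, had 12 h days at 15 to 25 °C and 12 h nights at 5 °C, and leaves were taken after 7 such nights, with controls kept at 15 to 25 °C. Each group had 5 plants, tissue was pooled before RNA extraction, and each stress had its own control plants and 3 arrays, called biological replicates in the series text. On arrays 1 and 2 the treated RNA carried Cy5, and on array 3 the dyes were exchanged. All plants were of 1 genotype and were fed and watered alike before treatment. The labelled tissue could not be checked against marker genes because the codes carry no annotation.

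Between 327 and 494 probes had a ratio on a leaf array, fewest on drought array 1 and most on cold array 2. Of the 403 compared probes, 259 had all 6 arrays, 90 had 5 and 54 had 4. Replicate arrays were only loosely alike. Across probes, the ratios of drought arrays 1 and 2 correlated at 0.06, those of arrays 1 and 3 at 0.51 and those of arrays 2 and 3 at 0.24. The cold arrays gave 0.54 (arrays 1 and 2), 0.11 (1 and 3) and 0.23 (2 and 3). Drought array 2 and cold array 3 ran against each other at -0.45, and drought array 3 and cold array 1 at -0.32. Probes are not independent replicates, so these correlations are descriptions.

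In leaves, 15 of the 403 probes (3.72%) differed between the stresses at an adjusted p under 0.05 in limma's moderated test with Benjamini-Hochberg adjustment. The ratio was higher under drought for 6 probes (1.49%) and lower for 9 (2.23%). Without adjustment, 93 probes (23.1%) had a p under 0.05, of which 43 were higher under drought and 50 lower. Another 42 probes had an adjusted p from 0.05 to 0.10. The median difference over all compared probes was 0.04 on the log2 scale and its median size was 0.35, with a range from -2.41 to 2.17. The lowest value, of U070, rested on 4 arrays and did not pass (adjusted p = 0.0708 in limma). It is named only because it bounds the range. The count of 15 depended on single arrays and on the processing: it was 2 without drought array 3, 5 without cold array 3 and 9 without drought array 2. It was 0 when flagged spots were kept, 35 with loess within subgrids and 57 when the arrays were also scaled to a common spread. On the 6 leaf arrays alone it was 2, 1 of them among the 15, and without a term for the dye in the model it was 3. By the methods' t-test after adjustment it was 0. With median centring in place of loess it was 16, 8 higher and 8 lower under drought.

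**Figure D1:**
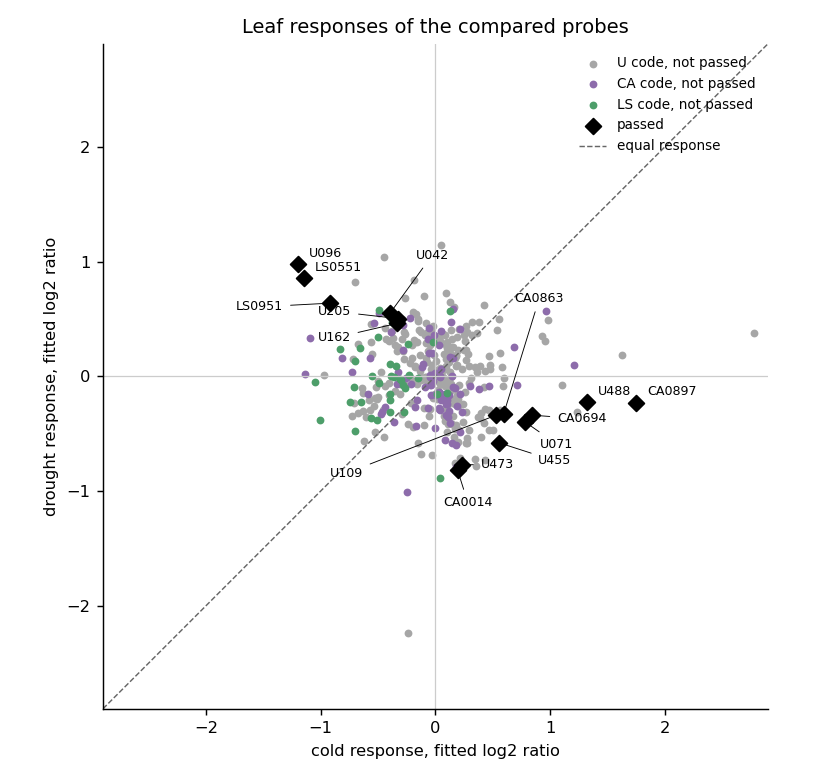
Fitted log2 ratio of treated over control leaves under cold (x axis) and drought (y axis) for the 403 compared probes, coloured by code prefix, with the 15 that passed as diamonds. The diamonds lie in the quadrants of opposite sign, away from the dashed line of equal response, and most points lie near 0 on both axes.

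The responses to the 2 stresses were set side by side across probes. The fitted drought and cold log2 ratios had a Pearson correlation of -0.10 over the 403 probes, and they share a fit but no arrays or control plants. Replicate arrays of one stress themselves correlated at 0.06 to 0.54, as given above, which limits what this value can show. Both ratios were above 0 for 83 probes and both below 0 for 99. Drought was above and cold below 0 for 102 probes, and the reverse held for 119. All 15 probes that passed had opposite signs, 6 with drought above and cold below 0 and 9 the other way. A test of the difference favours such probes, so these signs are a description. Among the 259 probes with all 6 arrays, the 3 drought ratios lay wholly above the 3 cold ratios for 32 (12.4%) and wholly below for 25 (9.65%), 57 (22%) together. In 20 of these the arrays of the stresses lay on opposite sides of 0, with drought above in 12 and below in 8. All 6 arrays lay above 0 for 8 probes and below 0 for 6.

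U096 had the largest difference that passed. Its log2 ratios under drought were 0.30, 0.54 and 1.84 on arrays 1 to 3, and under cold -1.90, -0.45 and -1.48. Every drought array was above 0 and every cold array below it, and the dye-swapped drought array was the highest. The difference was 2.17 ± 0.41 (SE), or 4.51-fold (adjusted p = 0.0123, limma). Without drought array 3 the difference was 1.78 and did not pass (adjusted p = 0.0788, limma), and without cold array 3 it was 1.84 (adjusted p = 0.0674, limma).

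LS0551 was measured on 5 arrays. Its drought log2 ratios were 0.10 on array 2 and 1.62 on array 3, and its cold ratios were -2.45, -1.07 and -0.47. The stresses did not overlap, but the spread within each was wide, with array SDs of 1.07 under drought (n = 2) and 1.01 under cold (n = 3). The difference was 2.00 ± 0.46 (adjusted p = 0.0426, limma), and it did not pass without cold array 1 or without cold array 3 (adjusted p = 0.0500 and 0.109, limma).

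LS0951 gave log2 ratios of 0.71, 0.23 and 0.65 under drought and of -1.98, -0.90 and -0.19 under cold. All drought arrays were above all cold arrays, and the cold arrays were the more scattered. The difference was 1.56 ± 0.35 (adjusted p = 0.0425, limma), and it did not pass when any of 5 of its 6 arrays was left out.

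U042 had close arrays under both stresses. It gave 0.52, 0.56 and 0.66 under drought and -0.31 and -0.47 on the 2 cold arrays that measured it. The array SDs were 0.07 and 0.11, and the difference was 0.95 ± 0.17 (adjusted p = 0.00898, limma). It was 0.84 and did not pass without drought array 3 (adjusted p = 0.0587, limma), and it was 0.49 with flagged spots kept.

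U205 and U162 had the smallest differences that passed, and their drought arrays overlapped their cold arrays. U205 gave 0.38, -0.14 and 0.99 under drought and -0.40, -0.79 and -0.08 under cold, a difference of 0.83 ± 0.21. U162 gave 0.30, -0.14 and 0.89 under drought and -0.71, -0.59 and -0.04 under cold, a difference of 0.80 ± 0.19. In both, drought array 2 fell among the cold values and drought array 3 was the highest. Both adjusted p-values were 0.0425 in limma, and each probe missed the threshold without any of 4 of its 6 arrays.

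**Figure D2:**
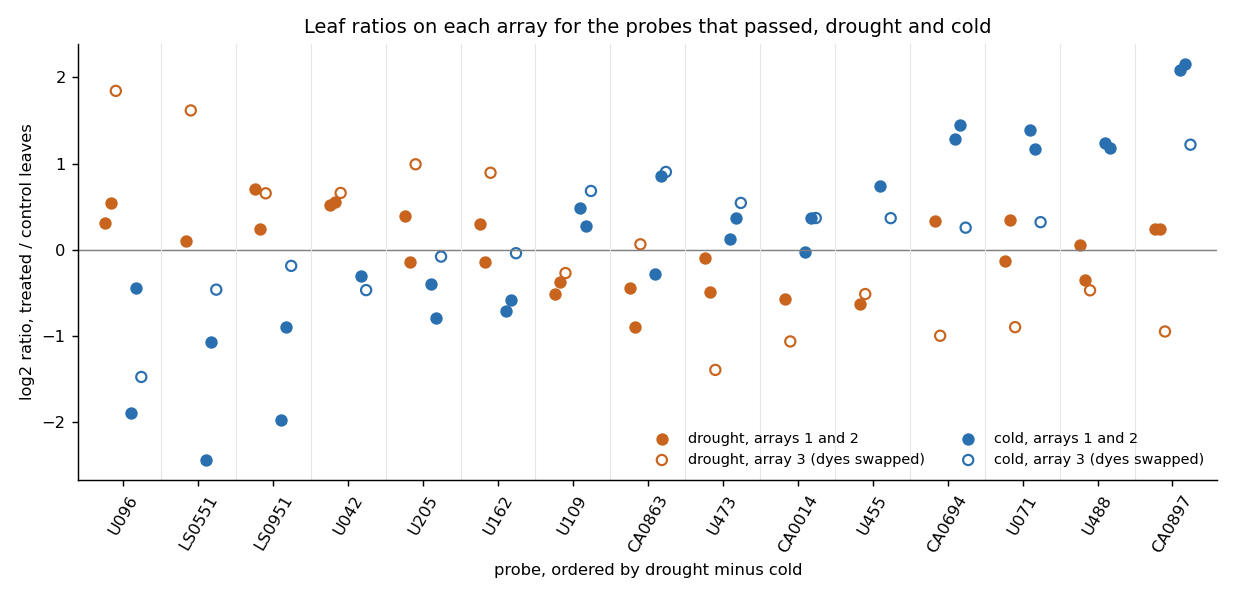
Log2 ratio of treated over control leaves on each array (y axis) for the 15 probes that passed (x axis, ordered by drought minus cold), drought in orange and cold in blue, with the dye-swapped array 3 as open circles. The drought and cold points do not overlap for 10 probes, and in 11 of 15 the open drought circle is the drought value farthest from the cold side. Of the 15 probes, 5 had 5 arrays and 1 had 4, and fewer points overlap less easily. No share over all compared probes stands beside the 10. The probes were chosen for this difference on the arrays shown, so both counts are descriptions.

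CA0897 had the largest difference in the other direction. Its log2 ratios were 0.24, 0.24 and -0.95 under drought and 2.09, 2.16 and 1.22 under cold. The cold arrays were all high, and drought array 3 alone was below 0 among the drought arrays. The difference was -1.98 ± 0.46, so the ratio was 3.95-fold lower under drought (adjusted p = 0.0419, limma). It did not pass without drought array 3 (adjusted p = 0.145), without any of the 3 cold arrays (adjusted p = 0.0500 to 0.0636) or without the dye term (adjusted p = 0.0706, all limma). Within an array, its spots differed by an SD of up to 0.65, the widest among the 15 probes, whose median spot SD was 0.11.

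U488 gave 0.06, -0.36 and -0.47 under drought and 1.24 and 1.18 on the 2 cold arrays that measured it. The means of the 2 cold arrays were nearly equal, with an SD of 0.04, and lay clear of all drought arrays. Cold array 1 rested on 2 spots, and the 5 spots of cold array 2 ran from 0.69 to 1.73. Drought arrays 1 and 3 rested on 2 spots each, and U488 could not be tested with at least 3 unflagged spots. The difference was -1.55 ± 0.27 (adjusted p = 0.00898, limma), and it passed when each of the 3 drought arrays was left out in turn. Neither cold array could be left out, since 2 were needed for the test.

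U071 and CA0694 had like profiles. U071 gave -0.13, 0.35 and -0.90 under drought and 1.38, 1.17 and 0.32 under cold. CA0694 gave 0.33 and -1.0 on drought arrays 2 and 3 and 1.28, 1.45 and 0.25 under cold. In each, the highest drought array was just above the lowest cold array, and the swapped arrays were the lowest under both stresses. The model holds a term for the dye, which was 0.51 for U071 and 0.46 for CA0694. The differences were -1.19 ± 0.20 (adjusted p = 0.00898, limma) and -1.18 ± 0.22 (adjusted p = 0.0114, limma). Without the dye term neither passed, with adjusted p-values of 0.165 and 0.144 in limma.

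U109 had the tightest arrays of the probes lower under drought with all 6 values. It gave -0.52, -0.37 and -0.27 under drought and 0.48, 0.28 and 0.68 under cold. Every drought array was below 0 and every cold array above it. The difference was -0.87 ± 0.16 (adjusted p = 0.00898, limma), and it did not pass without drought array 3 (adjusted p = 0.0587, limma).

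U455 and CA0014 lacked drought array 1. U455 gave -0.64 and -0.52 under drought and 0.74 and 0.36 on cold arrays 1 and 3, a difference of -1.13 ± 0.25. CA0014 gave -0.57 and -1.07 under drought and -0.03, 0.37 and 0.37 under cold, a difference of -1.01 ± 0.23. U455 rested on 2 spots and 1 spot under drought and on 6 spots and 1 spot under cold. Drought array 3 of CA0014 rested on 2 spots. With at least 3 unflagged spots neither probe could be tested. Neither overlapped between stresses. The control channel of U455 was above background on 1 of 3 drought arrays and that of CA0014 on 2 of 3. The adjusted p-values were 0.0425 and 0.0426 in limma. CA0014 did not pass without cold array 2 or cold array 3, and its difference was -0.54 with flagged spots kept.

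The last of this direction were U473 and CA0863. U473 gave -0.10, -0.49 and -1.40 under drought and 0.13, 0.36 and 0.54 under cold, a difference of -1.01 ± 0.26. CA0863 gave -0.45, -0.90 and 0.06 under drought and -0.28, 0.86 and 0.90 under cold, a difference of -0.92 ± 0.24. U473 had its stresses on opposite sides of 0, while CA0863 overlapped, with cold array 1 lower than drought array 3. The adjusted p-values were 0.0483 and 0.0425 in limma, and U473 passed under 8 of 21 alternatives and CA0863 under 11 of 21. Left out singly, 3 arrays took U473 and 4 arrays took CA0863 out of the calls. CA0863 was -0.62 without cold array 2 and -0.34 with flagged spots kept.

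In 11 of the 15 probes array 3 was the drought array farthest in the direction of the difference, and the median size of its ratios over all probes was 0.40, against 0.25 and 0.26 on drought arrays 1 and 2. Without drought array 3, 304 probes could be tested and 2 passed. Without drought array 2 it was 9 of 309, and without cold array 2 it was 16 of 308. The part of fewer probes and of fewer arrays per probe was not tested. Without drought array 3, LS0951 gave 1.77, CA0863 -0.96 and U109 -0.82, beside 1.56, -0.92 and -0.87 with it, and they did not pass. Smaller than with it were U096 at 1.78, CA0897 at -1.68, U473 at -0.83, U042 at 0.84, U162 at 0.74 and U205 at 0.71. None of these passed either. The 2 that passed were U488 at -1.36 and U071 at -1.19. The arrays were quantified on different days, with drought array 1 and cold array 2 on the earlier and the other 4 leaf arrays on the later day. Within the earlier day, 1 array against 1, the difference had the same sign for 11 of 11 measured probes, with sizes from 0.46 to 1.92. Within the later day it had the same sign for 15 of 15, with sizes from 0.66 to 2.89. The largest gap between days was that of U096, with 0.75 on the earlier and 2.89 on the later day. The probes were chosen on these same arrays, so those counts are descriptions.

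Each stress was also tested against its own controls. Drought passed for 0 of 428 probes in limma (78 at an unadjusted p under 0.05, lowest adjusted p 0.063), and for 0 by the methods' t-test after adjustment. Cold passed for 16 of 429 (3.73%), 12 up and 4 down. That count was 3 without cold array 1 and 6 without cold array 3, all of them up, and 0 on the arrays of the contrast alone. By the methods' t-test after adjustment, cold passed for 1 of 403 probes. Of the 15 probes that differed between the stresses, 6 also passed under cold alone and 0 under drought alone. U096 fell under cold (-1.20 ± 0.29, adjusted p = 0.0435, limma). CA0897 (1.75 ± 0.33), U488 (1.33 ± 0.22), CA0694 (0.84 ± 0.14), U071 (0.79 ± 0.14) and U109 (0.53 ± 0.12) rose, with adjusted p-values from 0.00861 to 0.0213 in limma. The drought value nearest the threshold among the 15 was that of U042, at 0.56 ± 0.11 (adjusted p = 0.063, limma). For 9 of the 15, neither stress passed by itself while the difference between the stresses did.

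A ratio can differ between stresses through the treated plants or through the control plants, so the channels were also fitted singly. In these levels, which are normalised log2 intensities, 0 of 403 probes passed between drought-treated and cold-treated leaves (57 at an unadjusted p under 0.05, lowest adjusted p 0.112) and 0 of 403 between the control leaves (20 at an unadjusted p under 0.05, lowest adjusted p 0.273, both limma). Treated levels of the 3 drought and 3 cold arrays did not overlap for 62 of 259 probes (23.9%), and control levels did not overlap for 18 (6.95%). In bulk leaves, fewer cells of a type and less RNA per cell cannot be told apart. Over all probes the treated and control differences correlated at 0.61, and each pair of channels shares its arrays.

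Among the 15 probes, the treated and control differences had opposite signs in 11, and the treated difference was the larger in 11. Choosing probes by a large difference of the ratios favours opposite signs in the channels, so these counts are descriptions. CA0897 had treated levels of 12.28, 12.01 and 10.82 under drought and of 13.24, 12.99 and 13.01 under cold. The cold-treated leaves were all above the drought-treated leaves, by 1.38 ± 0.27 (adjusted p = 0.112, limma). Its control levels differed the other way, at 12.04, 11.77 and 11.77 against 11.15, 10.83 and 11.79. U042 showed a treated difference of 1.12 ± 0.35 and a control difference of 0.15 ± 0.35, and LS0951 1.61 ± 0.63 and 0.05 ± 0.63.

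The remaining 4 of the 15 had the larger difference in the control channel. U096 had control levels of 12.13, 10.94 and 12.06 under drought and of 14.52, 12.60 and 13.59 under cold, with no overlap. Its treated levels were 12.43, 11.48 and 13.91 against 12.62, 12.15 and 12.11, and they overlapped. The control difference was -1.86 ± 0.72 and the treated difference 0.32 ± 0.72, and neither passed (adjusted p = 0.818 and 0.853, limma). U455 had a control difference of 1.15 ± 0.32 beside a treated difference of 0.02 ± 0.32. For U488 these were 1.01 ± 0.48 and -0.36 ± 0.48, and for LS0551 -1.31 ± 0.75 and 0.65 ± 0.75. The 2 stresses had separate control plants, as given above, and the part of this in the ratios was not tested.

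**Figure D3:**
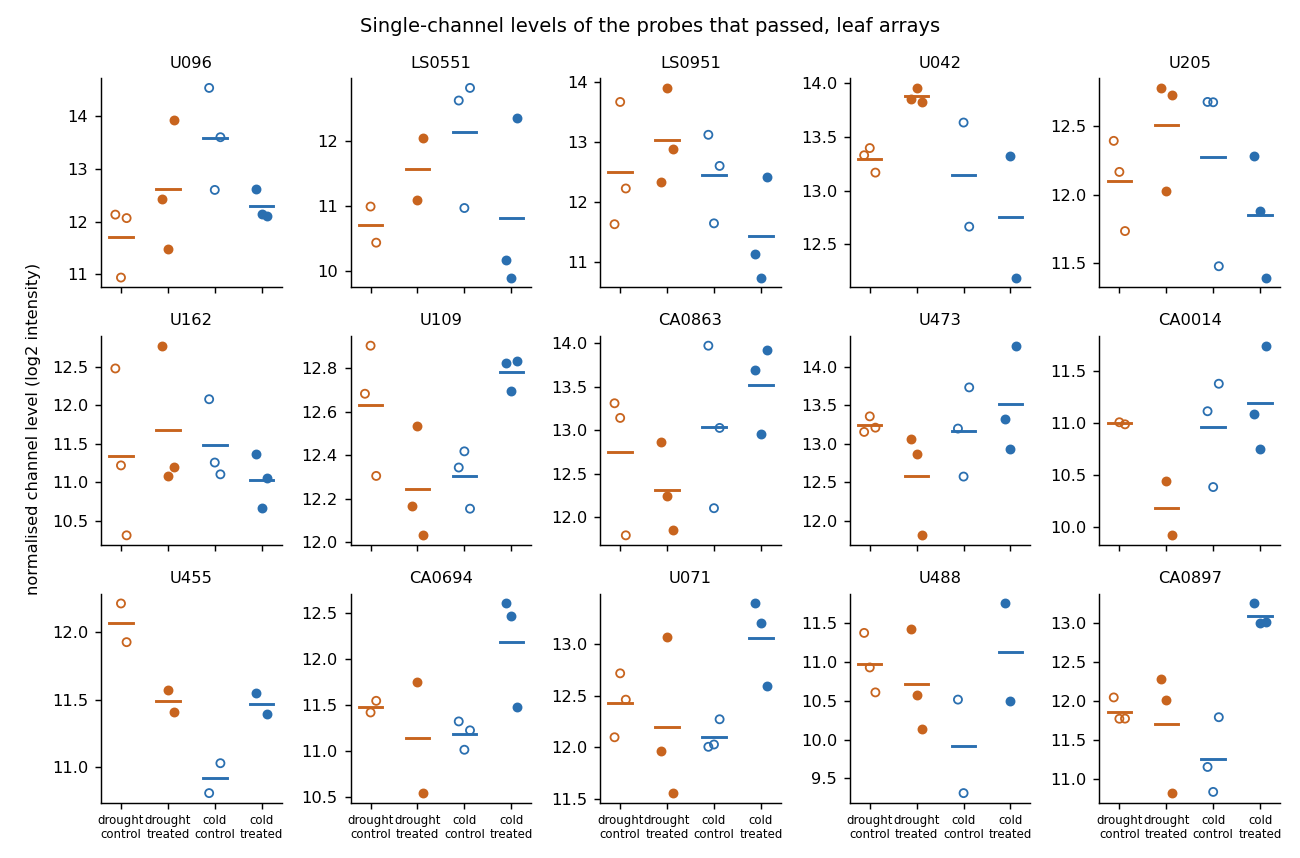
Normalised log2 channel level (y axis, its own range in each panel) of control (open) and treated (filled) leaves on the drought (orange) and cold (blue) arrays for the 15 probes that passed, with lines at the means. CA0897 separates in the cold-treated leaves, whereas U096 and U455 separate most in the control leaves.

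Detection was compared between the stresses as well. A channel was taken as above background for a probe when at least 50% of its spots exceeded the local background mean by 2 SDs. The treated channel was above background on all 6 leaf arrays for 319 of the 756 probes, and the control channel for 286. For 0 probes was the treated channel above background on all 3 arrays of one stress and on 0 arrays of the other, in either direction. Split by mean level into quartiles of the 403 probes, the 15 fell as 5, 4, 6 and 0 from the lowest to the highest quartile. The median size of the difference was 0.33, 0.38, 0.42 and 0.22 in those quartiles.

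Flowers with early pods under the same treatments gave the contrast in another tissue. There, drought minus cold passed for 0 of 415 probes (47 at an unadjusted p under 0.05, lowest adjusted p 0.144, limma). Of the 15 leaf probes, 14 could be tested in flowers. The difference had the sign of the leaves in 12 of them and was smaller in size in all 14. U071 was nearest to its leaf value, at -0.92 ± 0.20 against -1.19 ± 0.20. U096 gave 1.07 ± 0.46 and LS0551 1.10 ± 0.46, while U109 gave -0.02 ± 0.16, U162 -0.07 ± 0.21 and U455 0.18 ± 0.23. The probes were chosen for large leaf differences, so the smaller flower values are a description. No share of like signs over all probes tested in both tissues stands beside the 12, so that count is a description too.

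The test of leaves minus flowers passed for 0 of 368 probes (31 at an unadjusted p under 0.05, lowest adjusted p 0.441, limma), so a difference between the tissues was not shown for any of them. Its largest values among the 15 were -1.65 ± 0.69 for CA0897 and -1.31 ± 0.35 for U455. Across 368 probes the leaf and flower differences correlated at 0.36. U071 showed on the flower arrays -0.19, 0.44 and -0.52 under drought and 1.25, 1.00 and 0.24 under cold, an order of arrays like that in leaves. Drought flower array 1 had a ratio for 199 probes only.

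**Figure D4:**
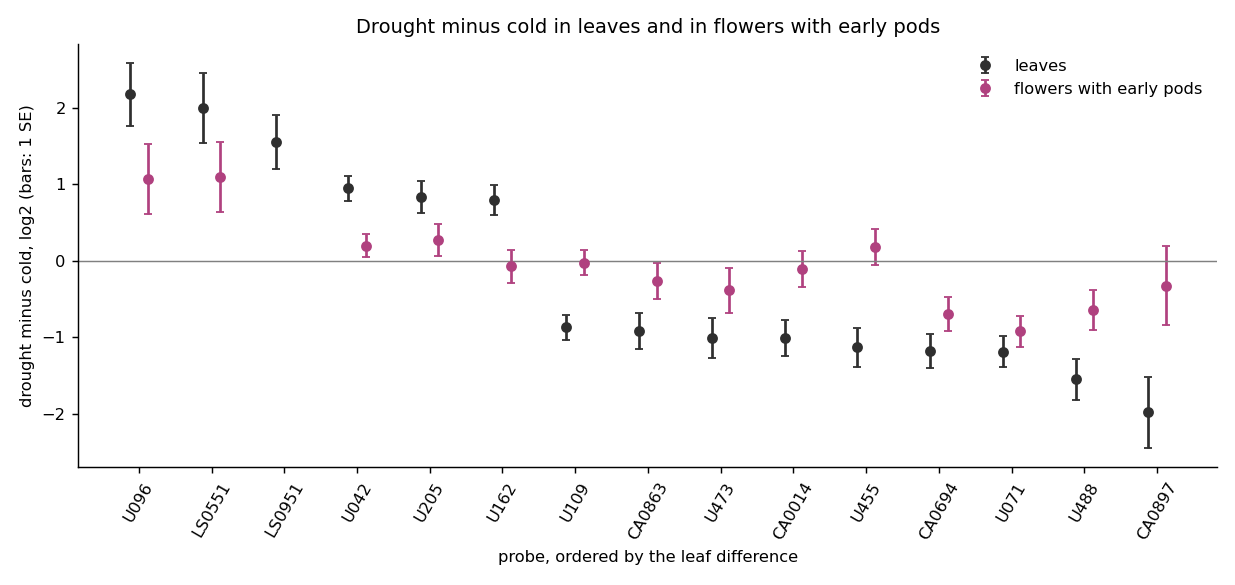
Drought minus cold on the log2 scale (y axis, bars 1 SE) in leaves (black) and in flowers with early pods (magenta) for the 15 probes that passed in leaves (x axis). The flower values lie nearer to 0 than the leaf values in all 14 probes measured, and LS0951 could not be tested in flowers.

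Under salt (150 mM NaCl given to plants aged 18 days) some of the 15 probes also passed against salt controls, in the same fit. At 24 h in shoots, 4 of 15 passed, beside 20 of 394 probes in all (5.08%). At 48 h in shoots it was 5 of 14, beside 131 of 419 (31.3%), and in roots at 48 h 6 of 9, beside 99 of 240 (41.2%). U096 rose in shoots at 24 h (1.39 ± 0.29, adjusted p = 0.0207) and at 48 h (1.68 ± 0.38, adjusted p = 0.00661, both limma), which is the direction of its drought ratio and opposite to cold. U042 fell in shoots at both times, by 0.49 at 24 h (adjusted p = 0.0207) and by 0.41 at 48 h (adjusted p = 0.0113, both limma), the sign of its cold ratio. U455, with a cold ratio above 0, rose in shoots at 24 h by 1.23 ± 0.18 (adjusted p = 0.00643) and in roots by 1.17 ± 0.15 (adjusted p = 0.000211, both limma).

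The direction in salt was not fixed by the direction in leaves. CA0694 fell in shoots at 48 h by 0.78 (adjusted p = 0.00172, limma) and in roots by 0.83 (adjusted p = 0.00183, limma), with a cold ratio that had risen. U473 fell in shoots at 48 h by 0.99 (adjusted p = 0.00182, limma) and rose in roots by 0.73 (adjusted p = 0.0198, limma). U205 fell in roots by 1.16 (adjusted p = 2.78e-05, limma) and in shoots at 24 h by 0.58 (adjusted p = 0.0342, limma), against a leaf drought ratio of 0.50 ± 0.15 that did not pass.

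Some of the 15 probes moved together over all arrays. Over the arrays of the 7 conditions that measured both probes, U488 and U109 correlated at 0.87 (17 arrays), U071 and CA0694 at 0.79 (18 arrays) and LS0951 and U162 at 0.81 (14 arrays). U205 and U162 correlated at 0.78 over 20 arrays. The strongest opposed pairs were LS0551 with CA0897 (-0.84, 14 arrays) and LS0951 with U071 (-0.84, 14 arrays). Arrays of one condition share a treatment, and the leaf arrays that chose the probes are among those counted, so these are descriptions of likeness.

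Responses shared by the 2 stresses were looked for in the mean of the drought and cold ratios. It passed for 0 of 403 probes (50 at an unadjusted p under 0.05, 33 above and 17 below 0, lowest adjusted p 0.184, limma). The 5 highest means among probes with all 6 arrays were 0.76 ± 0.24 for CA0849, 0.76 ± 0.23 for CA0897, 0.74 ± 0.19 for U298, 0.66 ± 0.17 for CA0857 and 0.64 ± 0.16 for U368. CA0849 gave 0.93, 0.61 and 0.37 under drought and 1.34, 0.30 and 1.44 under cold. U368 gave 0.30, 0.47 and 0.42 under drought and 0.94, 1.11 and 0.86 under cold. Both were above 0 on all 6 arrays, and U368 was the more even. CA0857 and CA0897 owed their place to cold, with fitted drought ratios of 0.10 ± 0.23 and -0.23 ± 0.33 beside cold ratios of 1.21 ± 0.23 and 1.75 ± 0.33.

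The 5 lowest means were -0.69 ± 0.32 for LS0109, -0.59 ± 0.18 for LS0697, -0.56 ± 0.19 for CA0689, -0.54 ± 0.37 for U397 and -0.50 ± 0.35 for U307. LS0109 gave -0.38, 0.17 and -0.97 under drought and -2.42, -0.36 and -0.30 under cold. Its mean leaned on single arrays, at -0.20 without drought array 3, -0.40 without cold array 1 and -1.18 without cold array 3. Without drought array 3 the mean of U397 was -0.31 and that of U298 0.46, and without cold array 3 that of CA0689 was -0.32. U397 gave -0.65, 0.53 and -0.96 under drought and -0.41, -0.92 and -0.90 under cold. U307 gave -0.80, 0.49 and -0.69 under drought and -0.24, -1.0 and -0.82 under cold. The 2 probes followed each other on every leaf array, with drought array 2 the one array above 0, and they correlated at 0.98 over 20 arrays of all conditions. CA0689 was flat under drought, at 0.05, -0.07 and -0.03, and low under cold, at -1.04, -0.71 and -1.77. Its cold ratio passed (-1.14 ± 0.26, adjusted p = 0.0213, limma), while its difference of 1.16 ± 0.37 did not (adjusted p = 0.0624, limma).

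The prefixes of the codes were not represented alike. Of the 442 probes with U codes, 274 could be compared, of 117 with CA codes 91, of 156 with LS codes 38 and of 41 with LC codes 0. The difference passed for 3.28% of the compared U codes, 4.40% of the CA codes (4 lower under drought) and 5.26% of the LS codes (2 higher), beside 3.72% of all. The median difference was 0.02 for U, -0.09 for CA and 0.41 for LS codes, and 34 of 38 LS codes were above 0. The LS median was -0.03 under drought and -0.39 under cold.

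By array, the LS median ratios were -0.16, 0.16 and -0.11 under drought and -0.44, -0.40 and -0.18 under cold. All 3 cold arrays were below all 3 drought arrays, though drought array 1 and cold array 3 were close. Each median was taken over the LS codes measured on that array, and these were not the same codes on every array. Without drought array 2, 14 LS codes remained and their median difference was 0.21. In flowers it was 0.18, with 26 of 30 LS codes above 0. The flower arrays had LS median ratios of -2.37, -0.09 and 0.08 under drought and of -0.53, -0.35 and 0.51 under cold. The lowest of these was a drought array and the highest a cold one, so the arrays of the stresses overlapped. The highest came from the dye-swapped cold array, and the lowest from the drought array with a ratio for 199 probes only.

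The LS spots were dimmer than the others. The median ratio of signal to background on a leaf array was 3.51 to 5.59 for LS codes, 5.96 to 16.4 for U codes and 8.65 to 14.3 for CA codes. Of the 38 LS codes, 25 were in the lowest quartile of mean level, with a median difference of 0.24. The 7 in the next quartile had a median of 0.63 and the 5 in the third 0.84. The U and CA codes in the lowest quartile had a median of -0.06, with 30 of 76 above 0. LS spots stood in 12 of the 24 subgrids and U spots in all 24, and the part of position in the LS values was not tested. The 38 are those of 156 with enough unflagged spots under both stresses, so their median does not describe LS codes as a class.

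**Figure D5:**
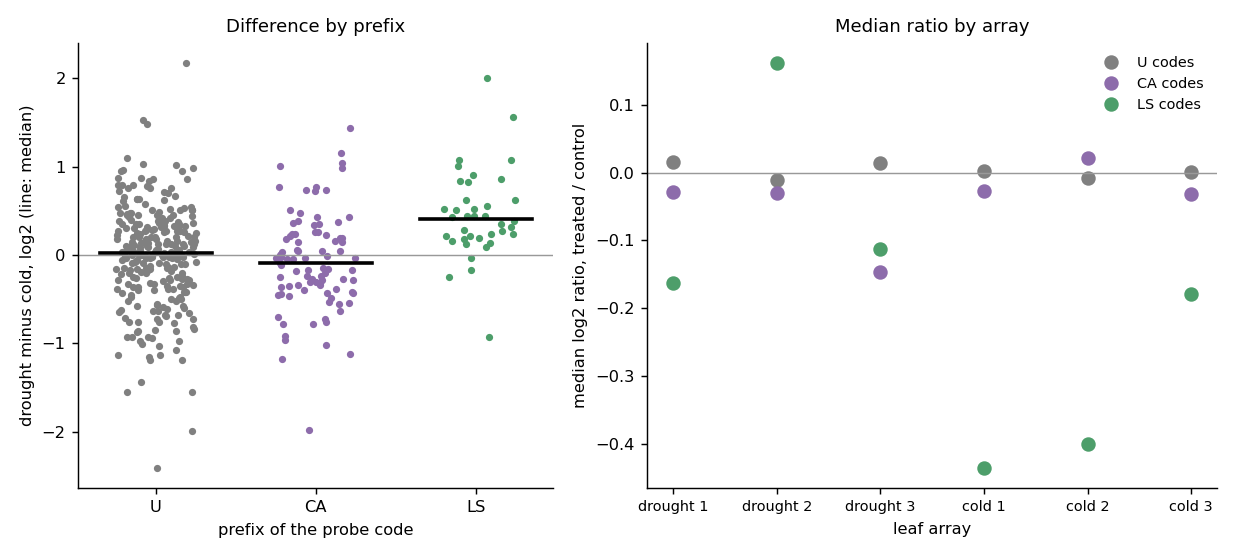
Left, drought minus cold on the log2 scale (y axis) of each compared probe by code prefix (x axis), with lines at the medians of 0.02 (U), -0.09 (CA) and 0.41 (LS). Right, the median log2 ratio of treated over control of each prefix (y axis) on each leaf array (x axis). The LS medians lie lowest on cold arrays 1 and 2.

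In the authors' deposited table, which gives 1 log2 ratio per condition, a difference could be formed for 402 of the 403 probes, and its sign was the same as here for 357. It was the same for all 15 probes that passed. The deposited ratios are averages of the same replicates on which the 15 were chosen, so this is a description and no independent check. In the authors' deposited table the difference was 2.30 for U096, 1.98 for LS0551 and -1.84 for CA0897, while U488 had -1.09 and U109 -1.22.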

How the data were processed

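The probes compared, the code prefixes and the tests were chosen with earlier results of these data known. The deposited intensity values are the mean pixel brightness of each spot and of its local background, from ImaGene 5.5 per the file headers, and spots were flagged there. The deposited table holds log2 ratios that the authors averaged over 3 replicates, per the labels. Its size of shift and its centring are not given in the sources used here. Its columns for drought and cold leaves had medians of -0.0852 and -0.12 and correlated at 0.745 and 0.772 with the mean array ratios, so it was read as treated over control.

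Intensity was corrected with normexp (offset 50) and normalised by loess within each array, with spots flagged in either channel left out and ratios turned to treated over control, then averaged over a probe's up to 6 spots. Each array had 4704 spots. A linear model with a dye effect and a term for each condition was fitted to 21 arrays of 7 conditions with limma 3.58.1 in R 4.3.3. All 7 conditions share the estimate of spread, and the 3 arrays of salt roots at 24 h, copies of 1 scan, were left out. With all 6 leaf arrays the dye term cancels in the difference and affects its error. The term passed for 56 of 478 probes, 6 of the 15 among them. Channel levels came from loess and Aquantile, with the array as a random block (correlation 0.765). Benjamini-Hochberg adjustment ran over all probes tested, with a threshold of 0.05. They measure the spread between arrays of pooled tissue, and the number of arrays limits the precision. The dyes were checked on Cy5 control spots, which read 19827 to 46796 in channels named Cy5 and 1378 to 2479 in those named Cy3. The script was tested on simulated data.

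Named were the probes that passed in leaves and the 5 highest and 5 lowest means of drought and cold among probes with 6 arrays. A rule for probes detected under 1 stress and one for probes passing in flowers gave none. Alternatives changed the background, normalisation, flags, spot minimum, dye term, arrays fitted, replicate block, day, weights and test, and left out each array. No genome or gene names were used here.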

Additional observations from a re-analysis of the deposited data

How the results depend on the processing

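Each count below is of probes at an adjusted p under 0.05 in limma unless another test is named, and no direction reversed for any named probe under any alternative run. For drought minus cold in leaves (15 probes) the count was 0 with flagged spots kept, 0 when a spot was dropped only where both channels were flagged, 3 without the dye term, 2 on the arrays of the contrast alone, 35 with loess by subgrid, 57 with scaling between arrays and 29 with at least 3 unflagged spots. By the methods' t-test it was 0 after adjustment and 52 before. It lay between 14 and 21 under the other alternatives and between 2 and 19 when 1 array was left out. The 35 and the 57 held all 15 probes, the 29 held 10 and the 2 calls without drought array 3 were among the 15. Of the 2 calls on the arrays of the contrast alone, 1 was among the 15. For the flower difference (0) it was 260 with flagged spots kept, 259 of them higher under drought, and 0 to 5 with 1 array left out. For leaves minus flowers it was 0 under all alternatives run. For the mean of drought and cold (0) it was 10 with the replicate number as a block, among them CA0849 at 1.19 (adjusted p = 0.0375), and 0 to 2 with 1 array left out. For cold alone (16) it was 0 with flagged spots kept, 0 on the arrays of the contrast alone, 29 with the replicate block (16 up, 13 down), 3 to 11 with 1 array left out, and 1 by the methods' t-test after adjustment and 41 before. For drought alone it was 29 by the methods' t-test before adjustment. For treated and for control levels it was 0 to 1 with 1 array left out. The causes were not tested. Same-numbered drought and cold arrays deviated from their group means with correlations of -0.14, -0.07 and 0.22. Arrays of unlike number gave -0.39 to 0.45, so these values cannot show whether the numbers pair the samples. With the replicate block the leaf difference had 15 calls, 13 of them shared. The LS median ran from 0.21 to 0.73 over the settings tried for it, which were chosen after seeing the data, and was 0.73 with flagged spots kept. Too few unflagged ratios left 353 probes not compared.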
